A study of Mus musculus with 21 samples.

Results

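Messenger RNA of 7 genes that write, copy or remove DNA methylation was followed in B cell precursors carrying an oncogene or an empty vector. The genes were the DNA methyltransferases Dnmt1, Dnmt3a and Dnmt3b, the DNMT1 cofactor Uhrf1, and the dioxygenases Tet1, Tet2 and Tet3. Their rows were found by symbol and are 7 of the 24421 in the deposited tables, each found once. All 7 passed the filter on low counts, among 12786 genes tested.

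The cells were primary B cell precursors from bone marrow of C57BL/6 mice labelled 53BP1-/- for the DNA repair factor 53BP1, a genotype that every group shared, the control included. They were cultured with IL-7 and transduced with the retroviral vector MIGR1 alone (EV), with BCR-ABL1p210 MIGR1, which encodes a fusion tyrosine kinase of human leukaemia, or with C-MYC MIGR1, which encodes a transcription factor that drives growth genes. Poly(A) RNA was sequenced 7 to 9 days after transduction, with 2 libraries per condition and 6 in all, and the comparisons ask how each oncogene changed expression relative to EV and how the oncogenes differed from each other. Age and sex of the mice are not given in the labels, the oncogene is driven by a viral promoter, and the methods used here state no sort for transduced cells before RNA extraction.

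In mammals a methyl group on cytosine sits mostly in CG pairs. DNMT1 restores it on the new strand after replication, at sites that UHRF1 recognises as methylated on one strand only, whereas DNMT3A and DNMT3B set it on unmethylated DNA. TET enzymes oxidise 5-methylcytosine to 5-hydroxymethylcytosine and further forms, which base excision repair or replication then removes. In blood cells DNMT3A and TET2 are known as genes mutated early in leukaemia, and TET2 and TET3 act in the opening of B lineage enhancers. No DNA methylation was measured in these samples, and each value below is an mRNA level or a difference between mRNA levels.

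Library totals ran from 20687092 to 24095955 counts, with a common biological coefficient of variation of 0.151. The labels were checked on Myc, with 3869 and 3277 counts in EV, 7239 and 8381 with BCR-ABL1 and 37920 and 27450 with C-MYC, and counts of Trp53bp1, the gene of 53BP1, lay between 342 and 723 in the 6 libraries. Since counts per gene do not show which exons were deleted and no group has the gene intact, the latter values do not check the knockout. Markers of B cell precursors summed to between 6125 and 6844 CPM (counts scaled to library size by TMM) in EV, 6381 to 7023 with BCR-ABL1 and 3724 to 4338 with C-MYC. Of these 13 markers, Dntt was higher and Cd79b, Il7r and Rag1 lower with BCR-ABL1 against EV by edgeR's quasi-likelihood test. With C-MYC against EV 0 were higher and 11 lower. Of all genes tested, 12.0% were lower with BCR-ABL1 and 24.5% with C-MYC. Summed by list, markers of other cells were highest in EV. The 12 myeloid markers summed to 1174 and 1400 CPM in EV against 144 and 161 with BCR-ABL1 and 196 and 339 with C-MYC. All 12 were lower with BCR-ABL1 and 11 with C-MYC by edgeR's quasi-likelihood test. The 7 T and NK cell markers were lower in both (83.6 to 113 CPM in EV, 7.02 to 8.48 in BCR-ABL1, 3.22 to 5.57 in C-MYC), as were 4 and 5 of 5 stromal markers (120 to 183, 7.54 to 8.31 and 2.02 to 2.78 CPM). Of 3 erythroid and megakaryocyte markers tested, Pf4 and Itga2b of megakaryocytes were lower in both (list sums 37.4 to 47.4, 7.77 to 8.86 and 11.0 to 13.3 CPM). Alas2, of erythroid cells, was not called in either (log2 fold change 0.40 and -0.09). In the count table Lum was at 0 in every library, as were the globin genes Hba-a1, Hbb-bs and Hbb-bt, which have near-identical copies whose reads the counting could have dropped. By FPKM, Hbb-bs reached 0.395 and Hbb-bt 0.233, and Lum and Hba-a1 were listed at 0. In such bulk RNA, fewer cells of a type and less RNA per cell cannot be told apart. The part of these other cells in the differences from EV given below was not tested. With either oncogene the sums of these markers were below those of EV, and the myeloid sum was higher with C-MYC than with BCR-ABL1. In C-MYC against BCR-ABL1, 3 of 12 myeloid markers were higher (Fcgr1 3.60, Cd14 2.26 and Csf1r 1.90 on the log2 scale) and 0 lower. Of 5 stromal markers 3 were lower (Col1a1 -1.33, Col1a2 -1.36 and Sparc -3.27), and 10 of 13 markers of B cell precursors were lower, with a median log2 fold change of -0.61. Of all genes tested, 11.5% were higher and 11.9% lower there. The part of these cell types in the differences between the oncogenes was not tested either.

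The genes lie on 7 chromosomes (GRCm38, GENCODE vM21): Dnmt1 at chr9:20907209-20959888 on the minus strand, Uhrf1 at chr17:56303321-56323486 on the plus strand, Dnmt3a at chr12:3806007-3914443 (plus), Dnmt3b at chr2:153649450-153687730 (plus), Tet1 at chr10:62804570-62908996 (minus), Tet2 at chr3:133463679-133545139 (minus) and Tet3 at chr6:83362373-83459084 (minus). Overlapping genes took few counts. Dnmt3aos, on the opposite strand of Dnmt3a, had 0 to 17 counts per library, and B230319C09Rik, opposite to Tet3, had 0 to 6.

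The promoters of the maintenance pair and of the other members that passed the test in a comparison are given here, because E2F sites and E-boxes in such windows are where cell cycle factors and MYC can bind. They are RefSeq sequences of GRCm38.p6 from 250 bases before to 50 bases after an annotated start, written 5′ to 3′ on the strand of the gene, and 12 starts were found for the 7 genes. Capitals mark matches to the E2F forms TTTGGCGC, TTTGCCGC, TTTCGCGC or TTTCCCGC on either strand. The E-box CACGTG and the STAT form TTCNNNGAA were searched too, and these forms do not overlap each other in the windows shown.
Dnmt1, chr9:20952574-20952873, minus strand: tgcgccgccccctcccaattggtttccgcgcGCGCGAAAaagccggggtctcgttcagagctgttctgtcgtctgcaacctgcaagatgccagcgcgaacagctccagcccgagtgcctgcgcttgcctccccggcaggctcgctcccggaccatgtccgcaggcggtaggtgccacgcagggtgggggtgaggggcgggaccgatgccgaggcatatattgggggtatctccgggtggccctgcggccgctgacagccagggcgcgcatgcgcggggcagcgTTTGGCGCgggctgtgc
Uhrf1, chr17:56304063-56304362, plus strand: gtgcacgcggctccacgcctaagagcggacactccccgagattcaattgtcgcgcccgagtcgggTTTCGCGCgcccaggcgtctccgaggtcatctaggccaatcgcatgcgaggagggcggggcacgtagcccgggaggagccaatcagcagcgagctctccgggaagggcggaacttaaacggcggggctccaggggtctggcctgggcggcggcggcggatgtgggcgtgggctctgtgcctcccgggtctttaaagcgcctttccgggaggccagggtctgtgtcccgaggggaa
Dnmt3b, chr2:153649199-153649498, plus strand: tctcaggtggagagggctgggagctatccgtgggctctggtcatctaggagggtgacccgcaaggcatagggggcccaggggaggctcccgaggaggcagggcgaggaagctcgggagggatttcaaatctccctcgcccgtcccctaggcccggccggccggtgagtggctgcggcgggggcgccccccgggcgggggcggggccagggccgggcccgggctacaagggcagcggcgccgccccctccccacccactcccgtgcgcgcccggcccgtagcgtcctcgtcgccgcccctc
Tet2, chr3:133544341-133544640, minus strand: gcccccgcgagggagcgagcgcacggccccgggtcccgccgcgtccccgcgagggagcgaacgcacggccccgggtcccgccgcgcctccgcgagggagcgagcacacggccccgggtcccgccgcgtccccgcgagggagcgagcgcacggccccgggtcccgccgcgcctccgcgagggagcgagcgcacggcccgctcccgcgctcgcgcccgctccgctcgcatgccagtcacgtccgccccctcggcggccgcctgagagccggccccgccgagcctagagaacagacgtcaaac

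The Dnmt1 window shown held TTTGGCGC at base 34 after the start and TTTCGCGC on the opposite strand at base -219, and the Uhrf1 window shown held TTTCGCGC at base -185. The windows shown were those with the most CG pairs, and the other 2 starts of Dnmt1 (2 and 12 CG pairs) and the other start of Uhrf1 (12 CG pairs) held no match to any form searched. Which annotated start these cells used was not measured, so the windows shown need not be the promoters in use. Any of the 4 E2F forms occurred in 2.28% of 32534 RefSeq promoters of the same length, TTTGGCGC in 0.519% and TTTCGCGC in 0.326%. No form searched was found in the windows of Dnmt3b and Tet2. CACGTG, present in 7.17% of all promoters, was found in 1 of the 12 windows, that of the Dnmt3a start at chr12:3891494-3891793, at base -80. TTCNNNGAA, present in 8.33% of all promoters, was found in none of the 12. The Tet2 window held 57 CG pairs, more than 99.8% of promoters, the Dnmt1 and Uhrf1 windows shown 33 each and the Dnmt3b window 30, against a median of 7. A match is a string of letters and not a measured binding site.

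None of the 7 genes passed the test in BCR-ABL1 against EV, and in C-MYC the methyltransferases Dnmt1 and Dnmt3b were higher and Tet2 was lower in at least 1 comparison. At a Benjamini-Hochberg adjusted p under 0.05 by edgeR's quasi-likelihood test, 0 of 7 were called in BCR-ABL1 against EV, where 17.0% of all genes tested were called (5.08% higher, 12.0% lower). In that comparison 1 of the 7 had an unadjusted p below 0.05, and DESeq2 called 0 of 7. Limma on FPKM also called 0, and its filter on a mean FPKM of at least 1 left out Tet1. In C-MYC against EV, 2 of 7 were called, both higher (Dnmt1 and Dnmt3b), against 43.1% of all genes (18.6% higher, 24.5% lower). In C-MYC against BCR-ABL1, 2 of 7 were called, Dnmt3b higher and Tet2 lower, against 23.4% of all genes (11.5% higher, 11.9% lower). The libraries of the conditions did not overlap for 1 of 7 members in BCR-ABL1 against EV, 6 of 7 in C-MYC against EV and 5 of 7 in C-MYC against BCR-ABL1, where 58.9%, 70.6% and 69.9% of all genes did not overlap. With 7 genes, each count of calls lay near the share of all genes. BCR-ABL1 and C-MYC were compared with the same EV libraries.

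**Figure D1:**
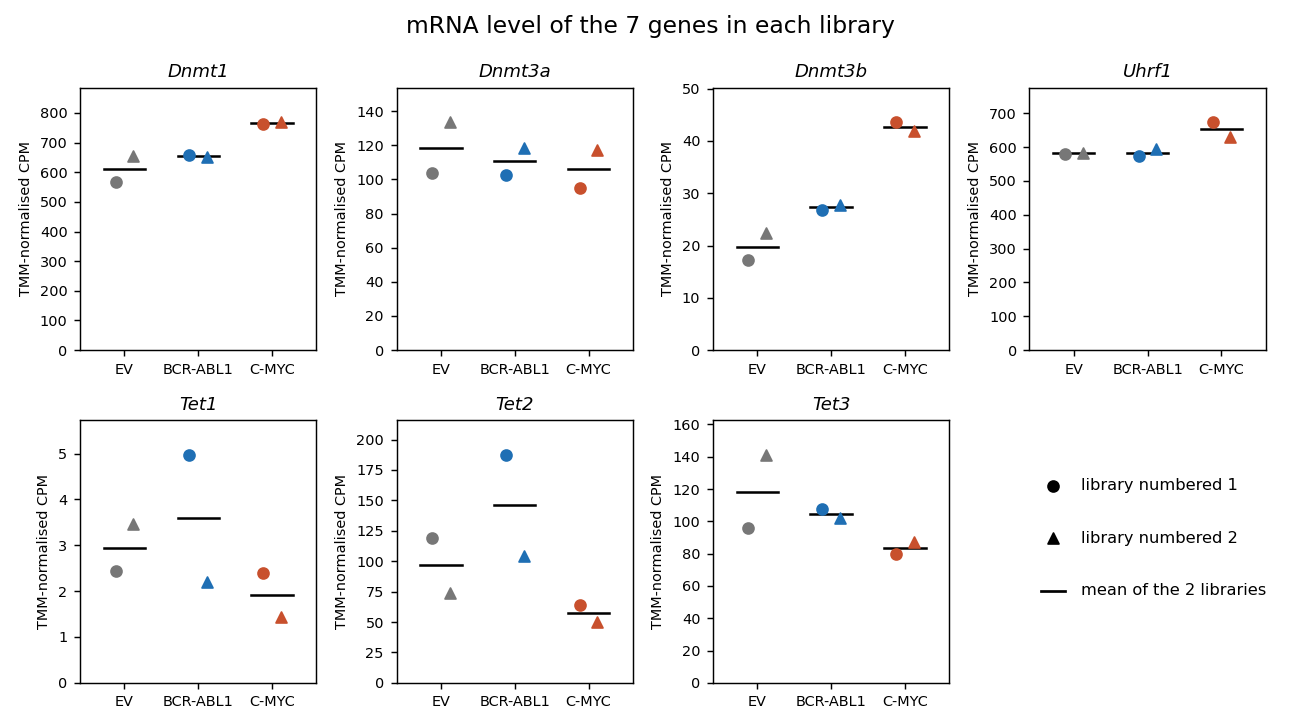
TMM-normalised CPM (vertical axes, from 0, a scale for each gene) of the 7 genes in EV, BCR-ABL1 and C-MYC, with a circle for the library numbered 1, a triangle for the library numbered 2 and a bar for their mean. Dnmt3b rises from 17.2 and 22.3 in EV to 43.7 and 41.9 in C-MYC without overlap, whereas Tet2 spans 104 to 188 in BCR-ABL1 alone.

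Dnmt1, which copies methylation to the daughter strand, had 567 and 656 CPM in the EV libraries, 658 and 651 with BCR-ABL1 and 763 and 770 with C-MYC. The C-MYC libraries were above all 4 others, and the BCR-ABL1 libraries lay at the level of the higher EV library. In C-MYC the level was 1.25-fold that of EV (log2 fold change 0.33 ± 0.10 SE, n = 2 against 2, adjusted p = 0.0325 by the quasi-likelihood test of edgeR, Benjamini-Hochberg). Against BCR-ABL1 the log2 fold change was 0.23 ± 0.10 (adjusted p = 0.143), and for BCR-ABL1 against EV it was 0.10 ± 0.10 (adjusted p = 0.560), and neither was called. The Dnmt1 call was kept without EV replicate 2 and lost without EV replicate 1, either BCR-ABL1 library or either C-MYC library, with adjusted p between 0.0686 and 0.117, and limma on log2 FPKM did not call it (log2 fold change 0.21).

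Uhrf1, whose protein reads hemimethylated CG and recruits DNMT1, had 578 and 584 CPM in EV, 574 and 593 with BCR-ABL1 and 675 and 630.01 with C-MYC. EV and BCR-ABL1 overlapped, and both C-MYC libraries were above them. The differences were 0.01 ± 0.09 on the log2 scale in BCR-ABL1 against EV, 0.17 ± 0.09 in C-MYC against EV and 0.16 ± 0.09 in C-MYC against BCR-ABL1, with adjusted p of 0.973, 0.172 and 0.235 in the same test. None was called, and the sign in BCR-ABL1 against EV turned with limma on FPKM (-0.10).

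Most partners of the maintenance machinery were higher in C-MYC than in EV. Of 9 partner genes tested, 7 were higher and 0 lower in C-MYC against EV, with a median log2 fold change of 0.41 against -0.08 over all genes. These were Cdca7 (0.89) and Hells (0.65), which form a nucleosome remodeller needed for methylation, Trim28 (0.70), a corepressor at imprints and retroelements, Pcna (0.42), the sliding clamp that tethers DNMT1 to replication forks, and Lig1, Usp7 and Rfc1. In BCR-ABL1 against EV, 3 of 9 were higher and 0 lower (Cdca7 0.42, Hells 0.40, Trim28 0.35, list median 0.28 against 0.00), and in C-MYC against BCR-ABL1 2 of 9 were higher and 0 lower (Cdca7 0.47, Trim28 0.36). Limma on log2 FPKM called 4 of the 9 in C-MYC against EV, 0 in BCR-ABL1 against EV and 1 in C-MYC against BCR-ABL1. Of all genes tested, 18.6%, 5.08% and 11.5% were higher by edgeR in these 3 comparisons, in the same order. Uhrf2, the paralogue of Uhrf1, had 102 to 202 CPM in EV and 104 to 125 in C-MYC and was not called (log2 fold change -0.41, adjusted p = 0.275), and Zfp57 was nearly absent. Genes of S phase were also higher in sum with either oncogene than in EV. They summed to 4213 and 4514 CPM in EV, 5152 and 5239 with BCR-ABL1 and 5458 and 5994 with C-MYC, and of 17 tested 2 were higher with BCR-ABL1 and 12 with C-MYC against EV, with 0 lower in either, where limma on FPKM called 0 and 6. In C-MYC against BCR-ABL1 0 of 17 were called by edgeR, 2 had an unadjusted p below 0.05, DESeq2 called 1 and limma 0. The part of cell cycle phase in the level of Dnmt1 was not tested.

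Dnmt3b, a de novo methyltransferase, had the smallest adjusted p of the 7 genes in C-MYC against EV. Its level was 17.2 and 22.3 CPM in EV, 26.8 and 27.8 with BCR-ABL1 and 43.7 and 41.9 with C-MYC, from 368 and 534, 566 and 668, and 950 and 932 counts. No library of one condition overlapped with those of another, and the order EV, BCR-ABL1, C-MYC held within both replicate numbers. C-MYC was 2.16-fold above EV (log2 fold change 1.11 ± 0.16, adjusted p = 0.00146) and 1.57-fold above BCR-ABL1 (0.65 ± 0.16, adjusted p = 0.0226) by edgeR's quasi-likelihood test. BCR-ABL1 against EV gave 0.46 ± 0.16, which was not called (adjusted p = 0.0870, unadjusted p = 0.0197) and was called without EV replicate 2 (0.67, adjusted p = 0.0128). The call against EV held without any 1 of the 6 libraries (adjusted p at most 0.0153), whereas the call against BCR-ABL1 was lost without either BCR-ABL1 library or either C-MYC library (adjusted p between 0.0999 and 0.181) and with limma on FPKM (0.50, adjusted p = 0.0606).

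Dnmt3a, the other de novo enzyme, had 103 and 134 CPM in EV, 103 and 118 with BCR-ABL1 and 94.96 and 117 with C-MYC. The 3 conditions overlapped, and in each the library numbered 2 was the higher. Log2 fold changes were -0.10 ± 0.16, -0.16 ± 0.16 and -0.06 ± 0.16 for BCR-ABL1 against EV, C-MYC against EV and C-MYC against BCR-ABL1, with adjusted p of 0.731, 0.462 and 0.822 in edgeR's quasi-likelihood test. Within a library, CPM of Dnmt3a was 6.02 and 5.99 times that of Dnmt3b in EV, 3.83 and 4.27 times in BCR-ABL1 and 2.17 and 2.80 times in C-MYC, a ratio of CPM without regard to length. These ratios did not overlap between conditions. The noncatalytic relative Dnmt3l had 0 to 5 counts per library. Trdmt1, a tRNA methyltransferase of the same fold once named Dnmt2, had 10.9 to 16.0 CPM and was not called in any comparison.

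**Figure D2:**
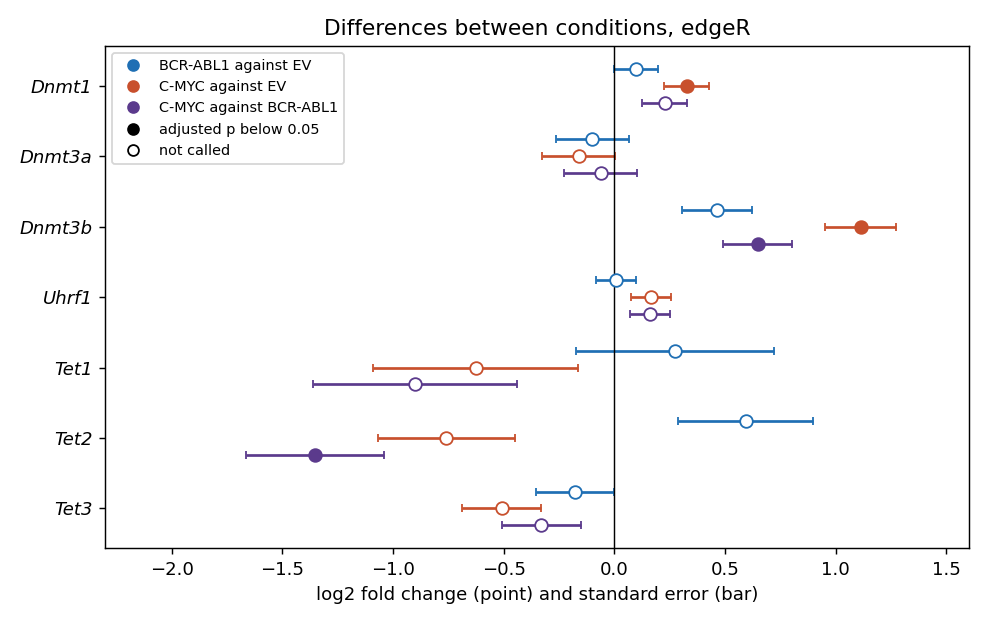
Log2 fold change (horizontal axis, points) with its standard error (bars) of each of the 7 genes in BCR-ABL1 against EV (blue), C-MYC against EV (orange) and C-MYC against BCR-ABL1 (purple), n = 2 libraries per condition. Filled points have an adjusted p under 0.05 by edgeR's quasi-likelihood test: Dnmt1 and Dnmt3b in C-MYC against EV, and Dnmt3b at 0.65 and Tet2 at -1.35 in C-MYC against BCR-ABL1.

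Tet2, a dioxygenase and tumour suppressor of blood cells, was lower in C-MYC than in BCR-ABL1. It had 119 and 74.2 CPM in EV, 188 and 104 with BCR-ABL1 and 63.9 and 50.4 with C-MYC. The C-MYC libraries were below all others, EV and BCR-ABL1 overlapped, and in every condition the library numbered 1 was the higher. C-MYC was 2.55-fold below BCR-ABL1 (log2 fold change -1.35 ± 0.31, adjusted p = 0.0191, edgeR's quasi-likelihood test). Against EV it was -0.76 ± 0.31 (adjusted p = 0.0817), and BCR-ABL1 against EV was 0.59 ± 0.31 (adjusted p = 0.233), and neither was called. The call against BCR-ABL1 was lost without BCR-ABL1 replicate 1 (-0.87, adjusted p = 0.128), C-MYC replicate 1 (adjusted p = 0.0746) or C-MYC replicate 2 (adjusted p = 0.135). The difference from EV passed the threshold without EV replicate 2 (-1.06, adjusted p = 0.0166), without either BCR-ABL1 library, and without a filter on low counts (-0.74, adjusted p = 0.0229).

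Tet3, the dioxygenase that acts with TET2 in B cell development, had 95.6 and 141 CPM in EV, 107 and 102 with BCR-ABL1 and 79.5 and 87.02 with C-MYC. Both C-MYC libraries were below the others, and BCR-ABL1 lay between the 2 EV libraries. The difference of C-MYC from EV, -0.51 ± 0.18 on the log2 scale, had an adjusted p of 0.0515 in edgeR's quasi-likelihood test, and that from BCR-ABL1 was -0.33 ± 0.18 (adjusted p = 0.219). BCR-ABL1 against EV was -0.18 ± 0.18 (adjusted p = 0.552). The EV spread bore on these values: without EV replicate 1 Tet3 was called in C-MYC (-0.76, adjusted p = 0.00148) and in BCR-ABL1 (-0.43, adjusted p = 0.0351), and without EV replicate 2 the difference of BCR-ABL1 from EV turned to 0.13 and that of C-MYC was -0.20.

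Tet1, known for its role in embryonic stem cells, had the fewest counts of the 7, with 52 and 83 in EV, 105 and 53 with BCR-ABL1 and 52 and 32 with C-MYC. As CPM these were 2.43 and 3.47, 4.98 and 2.20, and 2.39 and 1.44. EV and BCR-ABL1 overlapped, as did BCR-ABL1 and C-MYC. Log2 fold changes had the largest standard errors of the group (0.27 ± 0.45, -0.63 ± 0.46 and -0.90 ± 0.46 in the order above), and adjusted p was 0.730, 0.309 and 0.196 in edgeR's quasi-likelihood test, so that a difference was not detectable with this spread.

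Levels of different genes were compared per length, with 2 measures that disagreed on the TET genes. By the deposited FPKM (mean of 6 libraries) the order was Tet3 (92.9), Uhrf1 (87.6), Dnmt1 (85.4), Tet2 (29.4), Dnmt3a (13.5), Dnmt3b (4.50) and Tet1 (0.242). By CPM per kilobase of annotated exon, the order was Uhrf1 (142), Dnmt1 (91.8), Dnmt3a (6.72), Tet3 (6.12), Tet2 (5.93), Dnmt3b (5.86) and Tet1 (0.182). FPKM divided by CPM per kilobase was 9.69 times that of the median gene for Tet3, a ratio exceeded by 0.828% of 10261 genes, and 3.18 times for Tet2, exceeded by 9.03%. It was 1.29 for Dnmt3a, 0.854 for Tet1, 0.599 for Dnmt1, 0.499 for Dnmt3b and 0.396 for Uhrf1. The exons annotated to Tet3 and Tet2 span 16695 and 16870 bases with all transcripts joined, and the length behind the FPKM values is not given in the sources used here. The place of Tet3 and Tet2 depended on the measure, and the cause of the disagreement was not tested. Both measures placed Tet1 last in all 6 libraries and Dnmt1 and Uhrf1 among the first 3.

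**Figure D3:**
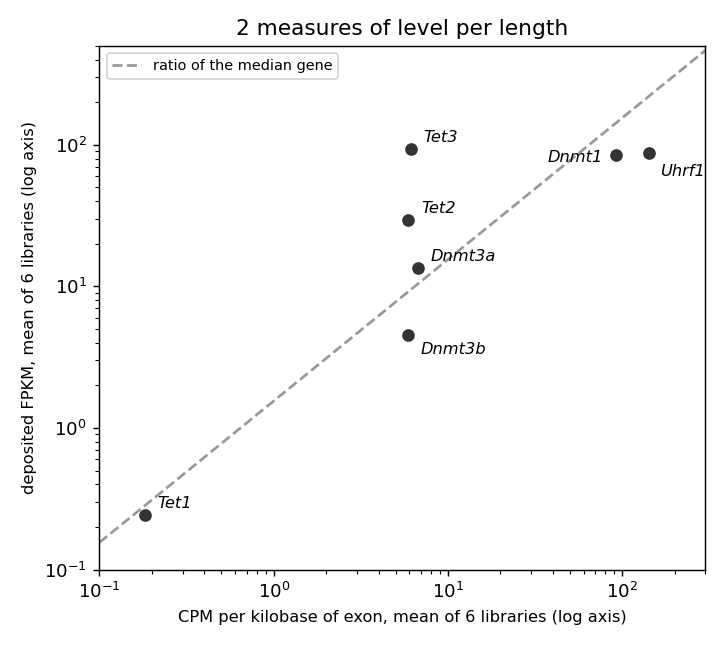
Deposited FPKM (vertical axis, log scale) against CPM per kilobase of annotated exon (horizontal axis, log scale) of the 7 genes, each a mean of 6 libraries, with the ratio of the median gene as a dashed line. Tet3 (92.9 FPKM, 6.12 CPM per kilobase) and Tet2 (29.4 and 5.93) lie furthest above the line.

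Neighbours in these orders were not all apart. By FPKM, Tet3 was first in EV and BCR-ABL1 and the third in both C-MYC libraries, Dnmt1 and Uhrf1 exchanged places between libraries, and Tet2, Dnmt3a, Dnmt3b and Tet1 kept places 4, 5, 6 and 7 in every library. By CPM per kilobase, Uhrf1 and Dnmt1 kept places 1 and 2, while Dnmt3a, Dnmt3b, Tet2 and Tet3 exchanged places 3 to 6. Dnmt3b stood at place 6 in the EV and BCR-ABL1 libraries and at place 3 in both C-MYC libraries, and Tet2 stood at place 3 to 5 in EV and BCR-ABL1 and at place 6 in C-MYC. Uhrf1 and Dnmt1 were above 98.3% and 97.03% of expressed genes by CPM per kilobase, and Tet1 was above 28.1%.

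The make-up of each family was given as a share of its summed CPM per kilobase. Among the methyltransferases, Dnmt1 made up 88.3% ± 0.817 (SD, n = 2) in EV, 88.1% ± 0.764 with BCR-ABL1 and 87.6% ± 0.437 with C-MYC. The share of Dnmt3b was 3.90% and 4.32% in EV, 5.22% and 5.39% with BCR-ABL1 and 7.27% and 6.85% with C-MYC, without overlap, and that of Dnmt3a was 7.20% and 7.93%, 6.14% and 7.06%, and 4.85% and 5.89%. By this measure Dnmt3b was below Dnmt3a in EV and BCR-ABL1 and above it in C-MYC, whereas by FPKM it was below Dnmt3a in every library. Among the TET genes, Tet1 made up 1.12% to 1.80%, and Tet2 44.1% ± 14.8 in EV, 55.97% ± 8.83 with BCR-ABL1 and 39.8% ± 5.29 with C-MYC, with overlap between EV and both others. By FPKM the Tet2 share was 21.6%, 30.5% and 18.2%, a lower level in the same order. CPM of Tet2 divided by that of Tet3 was 1.25 and 0.525 in EV, 1.75 and 1.02 with BCR-ABL1 and 0.804 and 0.579 with C-MYC, higher in BCR-ABL1 than in C-MYC without overlap.

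**Figure D4:**
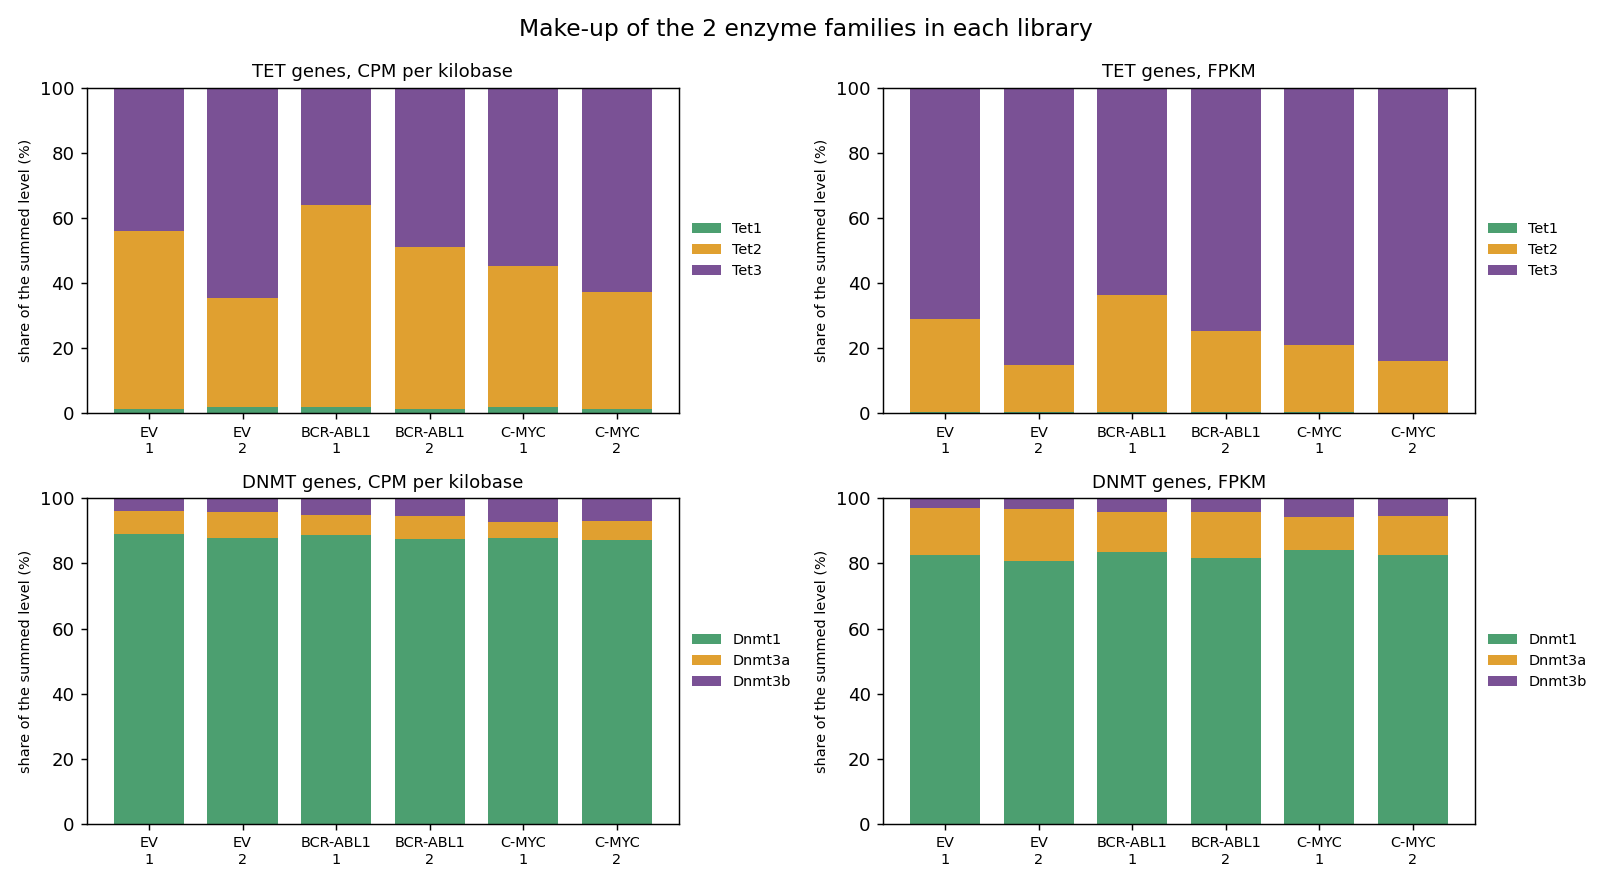
Share (vertical axis, percent) of each gene in the summed level of its family, TET genes above and DNMT genes below, by CPM per kilobase at left and FPKM at right, with a bar for each of the 6 libraries. Dnmt3b takes 3.90% to 4.32% in EV and 6.85% to 7.27% in C-MYC by CPM per kilobase, and Tet3 takes more than Tet2 in every library by FPKM.

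For the 3 members called in a comparison, the genes whose centred log2 CPM was nearest over the 6 libraries were listed among 10623 genes whose mean count was 50 or more. Nearest to Dnmt1 were Ccar1 (root mean square distance 0.0209, Pearson's r = 0.99), Rfc1 (0.0275, r = 0.99), a subunit of the clamp loader, and Spast (0.0291, r = 0.98). Nearest to Dnmt3b were Bop1 (0.0390), which acts in ribosome biogenesis, Abcf2 (0.0406) and Atic (0.0412), a purine synthesis enzyme, with r of 0.996 to 0.998. Nearest to Tet2 were Pmepa1 (0.159), Phlpp1 (0.162), a phosphatase that acts on AKT, and Dpy19l3 (0.181), with r of 0.97 to 0.99. These are descriptions over 6 libraries of 3 conditions. By this distance, which is not scaled to a gene's own spread, the nearest genes to Tet2 were several times farther than those to Dnmt1 and Dnmt3b. Pearson's r was 0.97 to 0.99 for Tet2, 0.98 to 0.99 for Dnmt1 and 0.996 to 0.998 for Dnmt3b.

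Genes of base excision repair and demethylation moved in both directions in C-MYC. Of 11 genes of base excision and demethylation tested, 3 were higher and 5 lower in C-MYC against EV (median log2 fold change -0.07), where 18.6% of all genes were higher and 24.5% lower. Lower were Gadd45a (-1.46) and Gadd45g (-1.15), stress proteins linked to demethylation, Neil1 (-1.31), Neil3 (-0.60) and Mbd4 (-0.76), which are DNA glycosylases, and higher were Ung (0.95), the uracil glycosylase, Apex1 (0.92), which cuts at abasic sites, and Parp1 (0.71). In BCR-ABL1 against EV 0 were higher and 3 lower (Gadd45g -1.18, Gadd45a -0.97, Neil1 -0.82, list median -0.36), where 5.08% of all genes were higher and 12.0% lower. Limma on FPKM called 2 there and 8 in C-MYC against EV. Between the oncogenes, Parp1 (0.56) and Ung (0.53) were higher and Neil3 (-0.39) lower in C-MYC, where 11.5% of all genes were higher and 11.9% lower. Tdg, the glycosylase that removes oxidised cytosine, had 0 or 1 count per library in the count table but 60.5 and 62.4 FPKM in EV, 22.3 and 65.7 with BCR-ABL1 and 68.7 and 66.2 with C-MYC in the other deposited table. Processed pseudogenes of Tdg are annotated, and the tables can differ in how they treat reads shared with such copies. The count table therefore gives no measure of Tdg, which edgeR did not test. Limma on FPKM did test it, so the limma counts above are of a set that includes Tdg.

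Of 5 TET partners and enzymes of 2-oxoglutarate supply tested, 1 was higher and 2 lower in C-MYC against EV (median log2 fold change 0.08), where 18.6% of all genes were higher and 24.5% lower. Idh2 (0.84), which makes 2-oxoglutarate, was higher. Ogt (-0.83), a glycosyltransferase that binds TET proteins, and Cxxc5 (-0.66), a CXXC protein that binds TET2, were lower. In BCR-ABL1 against EV, edgeR, DESeq2 and limma called 0 of 5, with 2 at an unadjusted p below 0.05, where edgeR called 17.0% of all genes. In C-MYC against BCR-ABL1 Idh2 was higher (0.58) and 0 were lower, where 11.5% of all genes were higher and 11.9% lower. Wt1 and Nanog, DNA-binding proteins known to recruit TET enzymes, had no counts in any library.

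The list of methyl-CpG readers included 4 genes that were lower in C-MYC. It took in genes of the MBD family whether or not their proteins bind methylated CG. Of 8 tested, 1 was higher and 4 lower against EV (median log2 fold change -0.33 against -0.08 over all genes, of which 24.5% were lower and 18.6% higher). Against BCR-ABL1, 0 were higher and 4 lower (median -0.46), where 11.5% of all genes were higher and 11.9% lower. There limma on FPKM called 3, without a test of Zbtb4. Zbtb4, a zinc finger reader, had 11.3 and 14.0 CPM in EV, 5.31 and 5.32 with BCR-ABL1 and 2.07 and 3.28 with C-MYC, with log2 fold changes of -1.25, -2.24 and -0.99, each called. Mbd6 (-0.79), Mbd5 (-0.56) and Mbd1 (-0.48) were lower in C-MYC than in EV, Mbd5 (-0.74), Mbd1 (-0.48) and Zbtb33 (-0.44) lower than in BCR-ABL1, and Mbd3 (0.66), a subunit of the NuRD complex, was higher than in EV. In BCR-ABL1 against EV, Zbtb4 alone of the 8 was called by edgeR, where 17.0% of all genes were called. Limma, which took genes with a mean FPKM of at least 1, did not test Zbtb4 and called 0 of the others.

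Several chromatin regulators bind unmethylated CG islands through a CXXC domain. Of 6 tested, Kdm2b (0.55), a histone demethylase, was higher and the histone methyltransferases Kmt2a (-0.92) and Kmt2b (-0.49) lower in C-MYC against EV (median -0.28). Of all genes tested, 18.6% were higher and 24.5% lower there, with a median of -0.08. In BCR-ABL1 against EV edgeR called 0 of 6, with 0 at an unadjusted p below 0.05 and 0 by DESeq2 and limma. In C-MYC against BCR-ABL1 it called 0, with 1 at an unadjusted p below 0.05 and 0 by DESeq2 and limma.

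Genes that make and recycle S-adenosylmethionine, the methyl donor of the DNMT enzymes, were mostly higher in C-MYC. Of 9 tested, 6 were higher and 0 lower in C-MYC against EV (median log2 fold change 0.56), where 18.6% of all genes were higher and 24.5% lower. Among the 6 were Adk (1.24), which removes adenosine, Ahcy (1.16), which hydrolyses the DNMT inhibitor S-adenosylhomocysteine, Mtap (1.06) of methionine salvage and Mtr (0.63), methionine synthase. Limma on FPKM called 3 of the 9 in C-MYC against EV, 1 in C-MYC against BCR-ABL1 and 2 in BCR-ABL1 against EV. Ahcy had 104 and 111 CPM in EV, 130.2 and 133 with BCR-ABL1 and 237 and 240.1 with C-MYC. Against BCR-ABL1, 3 were higher and 0 lower (Ahcy 0.86, Mat2a 0.60, Adk 0.40, list median 0.40 against -3.30e-05 over all genes). Of all genes, 11.5% were higher and 11.9% lower there. In BCR-ABL1 against EV Adk (0.84) and Mtap (0.83) were higher and 0 were lower (median 0.12 against 0.00), where 5.08% of all genes were higher and 12.0% lower.

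**Figure D5:**
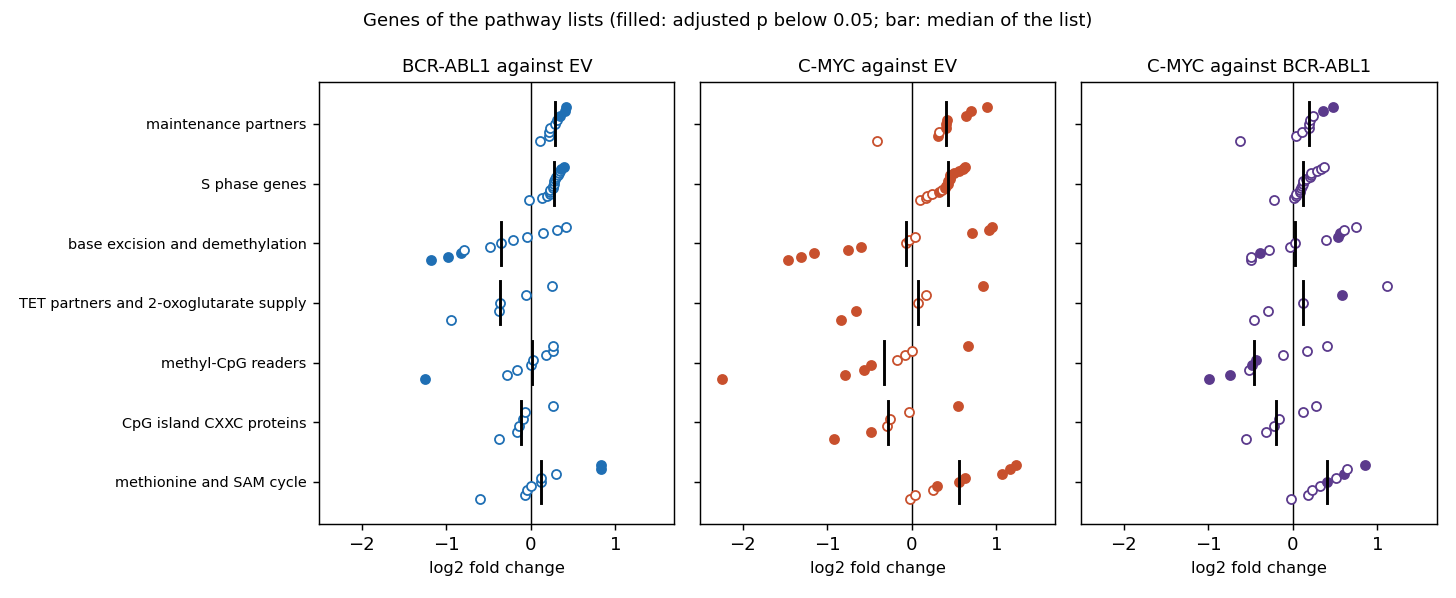
Log2 fold change (horizontal axes) of each tested gene in 7 pathway lists (rows) in the 3 comparisons, with filled points at an adjusted p under 0.05 by edgeR's quasi-likelihood test and a black bar at the median of each list. In C-MYC against EV the medians of the maintenance partners (0.41), S phase genes (0.43) and the methionine and SAM cycle (0.56) lie to the right of 0, and that of the methyl-CpG readers (-0.33) to the left.

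Germline genes that promoter methylation silences in somatic cells were near 0 in all libraries. Of 16 in the table, 6 had no count in any library (Mael, Asz1, Stk31, Tex101, Rhox5 and Slc25a31), which allows up to 3 counts each per library, and the 16 together summed to 3.68 to 4.63 CPM in EV, 3.95 to 5.78 with BCR-ABL1 and 3.45 to 5.03 with C-MYC. Only Sycp1 and Piwil2 passed the filter on low counts, and edgeR and DESeq2 called 0 of these 2 in each comparison, with 0 at an unadjusted p below 0.05. Both had a mean FPKM under 1, so limma with its filter on FPKM did not test them.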

How the data were processed

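Poly(A) RNA-seq of EV, BCR-ABL1 and C-MYC cells was analysed, with 2 libraries per condition. The series also holds ChIP-seq samples, not analysed here. The authors aligned reads to GRCm38/mm10 with STAR 2.5.0, and the deposited counts are unnormalised whole numbers for each gene symbol. The authors computed the deposited FPKM values with StringTie 1.3.0. The counting program and its strand setting are not given in the sources used here, so antisense and overlapping genes cannot be separated.

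The 7 members and the 14 gene lists were chosen with earlier results of these data known. Some genes of the lists are not reported here, and the counts and medians are of the lists without them. The genes named are all members, up to 4 called genes with the largest change in a list and comparison, genes without counts, and the 3 genes nearest to a called member. Other genes of the lists are named, after their values were seen, where a count of 5 or fewer or a role asked for it.

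Counts were tested with edgeR 4.0.16 in R 4.3.3 (quasi-likelihood test, filterByExpr, TMM, all 6 libraries in 1 model, Benjamini-Hochberg adjustment over 12786 of 24421 genes, threshold 0.05). CPM values are TMM-normalised. A standard error is the absolute log2 fold change divided by the square root of F. The distance between genes used log2 CPM with a prior count of 2. Exon lengths (GENCODE vM21) were found for 95.7% of symbols. Alternatives were DESeq2 1.42.0, its size factors, no filter, only the 4 libraries compared, a replicate term, limma 3.58.1 on log2 FPKM (pseudocount 1 or 0.1, mean FPKM of at least 1 or no filter), and leaving out each library. Scripts were tested on simulated data with 200 changed genes. Tables and figures used Python 3.11.15.

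Totals of 20687092 to 24095955 counts allow up to 3 counts where 0 were seen, for counting error only. The methods give duplicate experiments, without saying whether they used separate mice or cultures, so p-values measure the spread between these libraries, which may be technical. Replicates differed by more than sampling noise (chi-square per degree of freedom 10.7 to 45.6).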

Additional observations from a re-analysis of the deposited data

How the results depend on the processing

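The depth (at least 20687092 counts) limits what can be said of genes near 0, and counting error and the spread of 2 libraries were not compared gene by gene. Of 162 member values under alternatives other than leaving out a library, 144 kept direction and side of the threshold. With DESeq2 and with its size factors, the members called numbered 0, 2 and 2 in BCR-ABL1 against EV, C-MYC against EV and C-MYC against BCR-ABL1, as in the main test. Of 288 member values in all, the sign differed in 12. The causes of the changes listed here were not tested.

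With limma on log2 FPKM (pseudocount 1, pseudocount 0.1, and pseudocount 1 without a filter), Dnmt1 in C-MYC against EV was 0.21, 0.21 and 0.21, and Dnmt3b in C-MYC against BCR-ABL1 was 0.50, 0.58 and 0.50, none of them called. Tet2 in C-MYC against BCR-ABL1 was not called without a filter (-1.30). Uhrf1 in BCR-ABL1 against EV was -0.10, -0.10 and -0.10. Genes called numbered 1055, 1043 and 1425 in BCR-ABL1 against EV and 1412 in C-MYC against BCR-ABL1 without a filter. Members called numbered 1, 1 and 1 in C-MYC against EV, and 1, 1 and 0 in C-MYC against BCR-ABL1. With only the 4 libraries compared, Uhrf1 in BCR-ABL1 against EV was -0.0045, Tet3 in C-MYC against BCR-ABL1 passed the threshold at -0.33, and 4538 genes were called in that comparison. Without a filter on low counts, Tet2 (-0.74) and Tet3 (-0.49) passed it in C-MYC against EV, which made 4 members called.

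With the replicate number as a block, Dnmt3b (0.47) and Tet2 (0.58) passed the threshold in BCR-ABL1 against EV and Tet2 (-0.72) and Tet3 (-0.49) in C-MYC against EV, so that 2 and 4 members were called, and counts of all genes called moved by less than 1.5 times. The labels give no shared batch for a number, and the deviations of same-numbered libraries correlated at 0.273, 0.236 and 0.204 over 12786 genes between the pairs of conditions. With 2 numbers, the block was not treated as a pairing.

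Leaving out each of the 6 libraries in turn leaves a condition with 1 library, assumed to vary like the others. In BCR-ABL1 against EV the range was -0.27 to 0.10 for Dnmt3a, 0.30 to 0.67 for Dnmt3b, -0.020 to 0.037 for Uhrf1, -0.42 to 0.75 for Tet1 and -0.43 to 0.13 for Tet3, with 0 to 1 members and 665 to 2729 genes called (714 and 665 without BCR-ABL1 replicate 1 or 2). In C-MYC against EV it was 0.23 to 0.44 for Dnmt1, -0.33 to 0.037 for Dnmt3a, -1.06 to -0.37 for Tet2 and -0.76 to -0.20 for Tet3, with 1 to 3 members and 3329 to 6077 genes called (3329 and 3563 without C-MYC replicate 1 or 2). In C-MYC against BCR-ABL1 it was -0.22 to 0.082 for Dnmt3a, 0.62 to 0.68 for Dnmt3b, -1.71 to -0.87 for Tet2 and -0.40 to -0.27 for Tet3, with 0 to 3 members and 618 to 4519 genes called. That count was 4500 and 4519 without an EV library, 618 and 1130 without BCR-ABL1 replicate 1 or 2, and 1291 and 1038 without C-MYC replicate 1 or 2. The Dnmt3b call against EV held in all 6.

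In the order of levels, counts per kilobase in place of FPKM moved Dnmt1 to place 2, Uhrf1 to 1, Dnmt3a to 3, Tet3 to 4 and Tet2 to 5. In single libraries by FPKM, Dnmt1 stood at place 1 or 2 in C-MYC and 2 in BCR-ABL1 replicate 1, Uhrf1 at 3 and 1 in BCR-ABL1 replicate 1 and C-MYC replicate 1, and Tet3 at 3 in both C-MYC libraries. With FPKM in place of counts per kilobase, the family shares in EV, BCR-ABL1 and C-MYC were 0.188%, 0.214% and 0.177% for Tet1, 21.6%, 30.5% and 18.2% for Tet2, 78.2%, 69.2% and 81.6% for Tet3, 81.8%, 82.5% and 83.5% for Dnmt1, 15.1%, 13.3% and 10.95% for Dnmt3a, and 3.17%, 4.14% and 5.59% for Dnmt3b.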
